A study of Mus musculus with 4 samples.

Results

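Rab proteins are small GTPases that direct membrane traffic, and the transcripts of their genes were followed here in mouse oocytes at 2 stages of meiotic maturation, in libraries labelled wild type and Erk-/-. Members were all gene symbols of the form Rab followed by a number, with or without a closing letter and digit, and 58 of the 23309 gene symbols in the deposited files met this rule. There were 4 libraries, 1 per group: wild-type (WT) and Erk-/- oocytes at the germinal vesicle (GV) stage, before meiosis resumes, and at metaphase of the second meiotic division (MII), the mature egg. All oocytes were of the ICR strain, each library pooled 60 cells, and the females were 21 to 23 days old and had received the gonadotropins PMSG and hCG, per the labels' protocols. Groups were taken from the sample titles, because the treatment protocol speaks of WT and Btg4-/- mice and the design text of an oocyte in the singular. The labels give neither the Erk gene or genes deleted, nor the cells in which they were deleted, nor the hormone behind each stage. Without a replicate no comparison below can be tested, and none carries a p-value. A difference is counted where log2((FPKM + 1)/(FPKM + 1)) reached 2-fold, a rule of size. FPKM scales fragments to transcript length and to the mapped total, so levels can be set side by side between genes.

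A Rab protein is active when bound to GTP and inactive when bound to GDP. Exchange factors load GTP, GTPase-activating proteins (GAPs) end the active state, and prenyl groups added by Rab geranylgeranyl transferase anchor the protein in membrane. GDP dissociation inhibitors (GDIs) then draw the inactive form back into the cytosol. Each Rab marks its own compartment: Rab5 proteins the early endosome, Rab7 the late endosome and lysosome, Rab1, Rab2 and Rab6 the route between endoplasmic reticulum and Golgi, Rab3 and Rab27 vesicles that await exocytosis, and Rab4 and Rab11 recycling endosomes. In mouse oocytes, Rab11a vesicles carry actin nucleators that take part in moving the spindle, and Rab3a and Rab27a have been tied to cortical granules, the vesicles released at fertilization to block further sperm.

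Mapk3, which encodes ERK1, was at 333 FPKM in WT GV and 52.3 in Erk-/- GV oocytes (authors' bounds 44.3 to 54.5). At MII it was at 25.7 FPKM in wild type and 34.3 in the library titled Erk-/-, so its level does not set that library apart, and it is called the labelled Erk-/- MII library below. The 2 libraries titled Erk-/- are called the labelled Erk-/- pair where they are compared with each other, and directions drawn from that pair rest on the title of the MII library. All 10 oocyte markers examined were at 1 FPKM or more in each library, and summed to between 11355 and 23011 FPKM. Of 14 granulosa and cumulus markers, 9 to 11 were listed at 0 in each library, Foxl2, Amh and Fshr in all 4, and the sum ran from 13.7 to 36.0 FPKM. Cyp19a1 was the highest in WT GV, WT MII and labelled Erk-/- MII, at 15.5, 21.8 and 10.8 FPKM. In Erk-/- GV, Nr5a2 was at 17.0 FPKM, Inha at 11.3 and Gja1 at 7.71, against 6.84, 3.80 and 0.031 in WT GV. Cyp19a1 and Kitl went the other way, at 15.5 and 2.75 FPKM in WT GV and listed at 0 in Erk-/- GV. Of 10 blood, endothelial and stromal markers, 7 or 8 were listed at 0, and the sum of 26.5 to 71.6 FPKM was mostly Pecam1. The bounds of the Rab genes at 10 FPKM or more had a median half-width of 9.01% to 9.65% of the value. In each library 3 Rab values lay above their own upper bound, and no bounds are used for those. Fewer molecules of a transcript per oocyte and a larger amount of all other RNA cannot be told apart in these pooled samples.

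Rab genes made up 0.322% of all FPKM in WT GV, 0.368% in Erk-/- GV, 0.280% in WT MII and 0.371% in the labelled Erk-/- MII library. In the same order, 34, 33, 35 and 41 of the 58 genes were above 0, and 26, 23, 17 and 22 were at 10 FPKM or more. In all, 33 genes had a mean of at least 1 FPKM over the 4 libraries and entered the comparisons. The remaining 25 comprised 13 listed at 0 everywhere and 12 that were low, the highest single value being 2.13 FPKM for Rab24. Rab7l1 was just inside this limit, with a mean of 1.79 FPKM, and Rab2b just outside, at 0.861. Of the 33 genes, 29 reached 10 FPKM in some library and are given by name. Rab3b, Rab40c, Rab5a and Rab7l1 stayed lower.

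Rab7, which drives the fusion of late endosomes with lysosomes, had the highest FPKM of the family in every library. It stood at 394.5 FPKM in WT GV, 480.0 in Erk-/- GV, 290 in WT MII and 507 in the labelled Erk-/- MII library. Between 25.8% and 33.0% of the summed Rab FPKM was Rab7. The genes behind it changed with stage. Rab1b and Rab5c held the next places in WT GV oocytes, and Rab3d and Rab38 in Erk-/- GV oocytes. In both MII libraries those places went to Rab14 and Rab11a, which act on endosomal and recycling membrane, and with Rab7 they made 52.4% of the Rab sum in wild type and 52.1% in the library labelled Erk-/-.

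**Figure D1:**
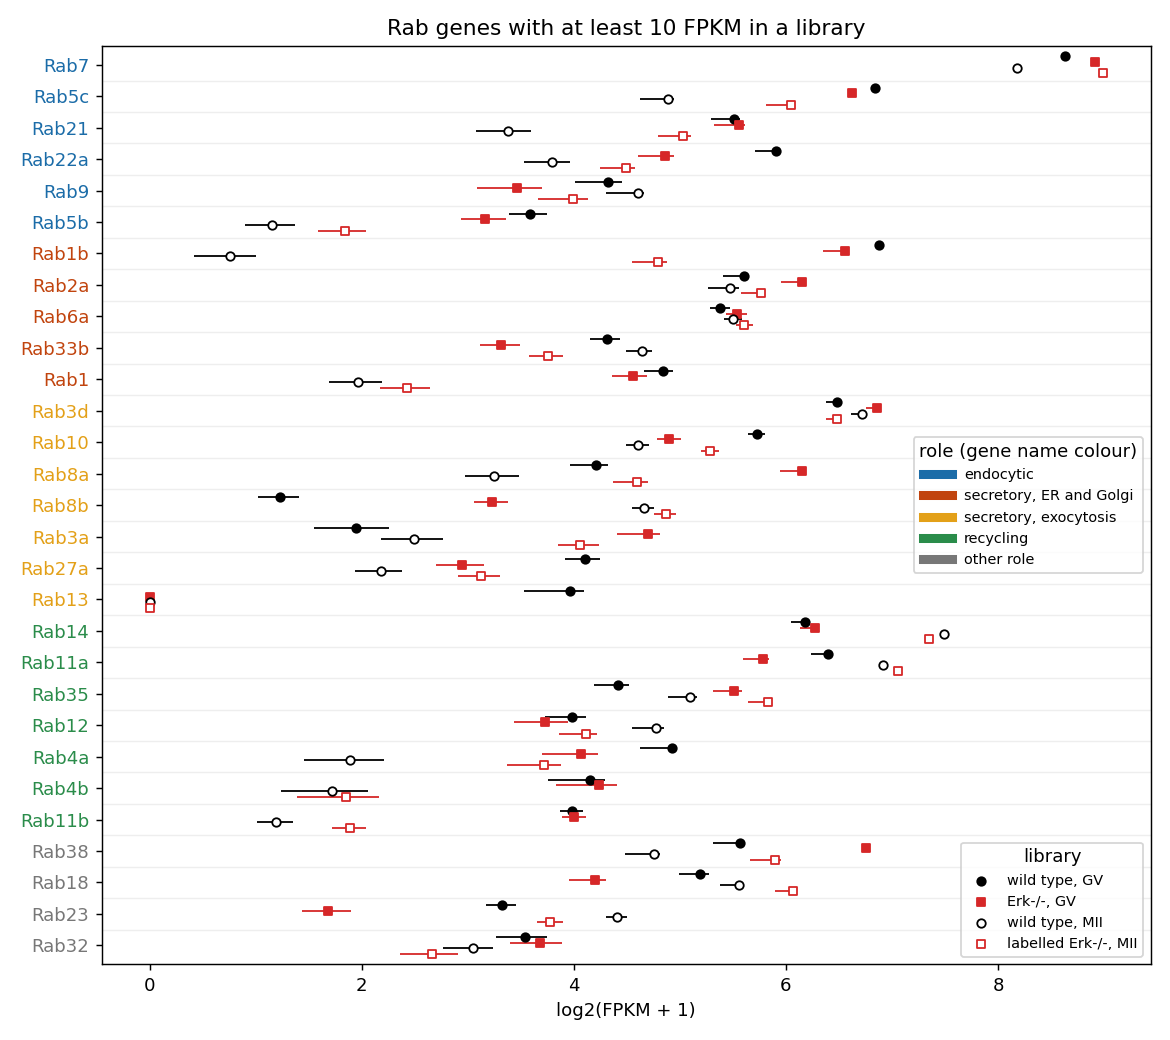
Levels of the 29 Rab genes that reached 10 FPKM in at least 1 library, as log2(FPKM + 1) on the x axis, with 1 point per library, the authors' bounds as lines where the value lies within them, and gene names coloured by role. Rab7 has the highest level in each library, and Rab1b has 116 FPKM in WT GV and 0.689 in WT MII.

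Grouped by role, the 12 endocytic, 23 secretory and 9 recycling genes took different shares of the Rab sum at the 2 stages. Endocytic genes held 644 FPKM in WT GV and 370.01 in WT MII, 44.2% and 33.0% of the family's sum. Secretory genes went from 453 to 287 FPKM, or from 31.1% to 25.6%. Recycling genes stood at 251 FPKM at GV and 364 at MII, and their share went from 17.2% to 32.5%. Most of that sum was Rab14, at 71.5 and 178 FPKM, and Rab11a, at 83.4 and 120. The role did not rise as a whole: of its 7 genes that passed the filter, 3 were at least 2-fold lower at MII. In the labelled Erk-/- pair the endocytic share was 43.2% at GV and 42.7% at MII, the secretory share 32.2% and 22.7%, and the recycling share 15.2% and 25.1%. A few genes set these sums: without Rab7, endocytic genes summed to 250 FPKM in WT GV and 80.4 in WT MII. In the labelled Erk-/- pair they summed without Rab7 to 190 FPKM at GV and 149 at MII. The other 14 genes held 7.59% to 9.56%.

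**Figure D2:**
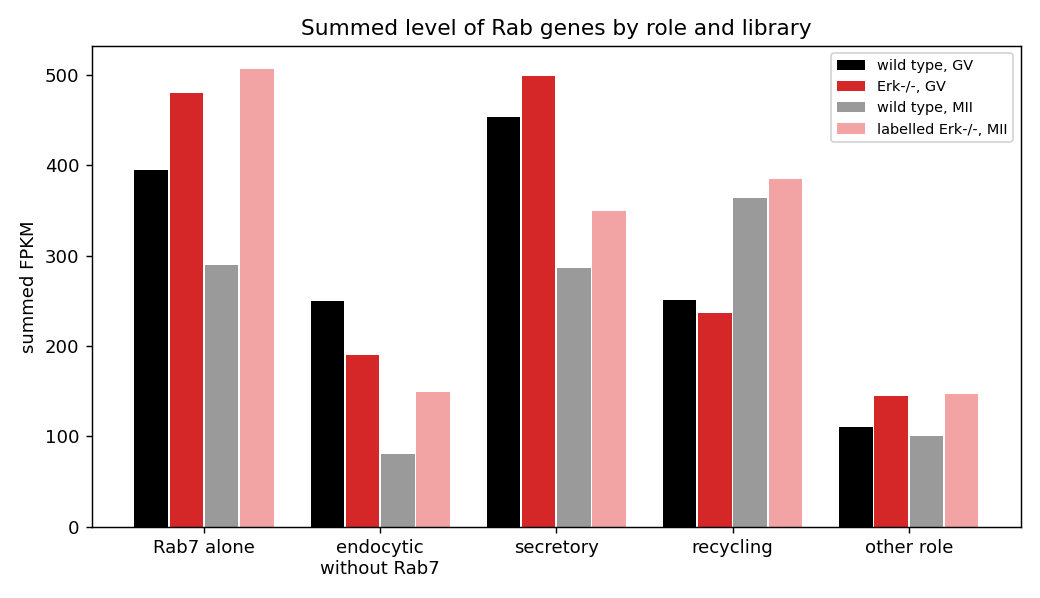
Summed FPKM of the Rab genes of each role in the 4 libraries, as bars that start at 0, with Rab7 drawn apart from the other endocytic genes. Recycling genes sum to 251 FPKM in WT GV and 364 in WT MII, while the endocytic genes other than Rab7 go from 250 to 80.4. Most of the recycling sum in WT MII is Rab14 and Rab11a, at 178 and 120 FPKM.

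In wild-type oocytes, 15 of the 33 Rab genes were at least 2-fold lower at MII than at GV and 3 were at least 2-fold higher. Over all 9990 genes tested, 49.6% were lower and 20.6% higher, so the share of Rab genes that was lower was near the background. Their median log2 ratio was -0.81 and that of all genes -0.97. The split depended on scaling: with median-of-ratios size factors, which raise the all-gene median by 0.67, 14 Rab genes were lower and 12 higher, the added ones including Rab3a, Rab3d, Rab9, Rab11a, Rab12, Rab18, Rab33b and Rab35 at log2 ratios of 1.06 to 1.58. Without the 3 genes listed at 0 in some library (Rab13, Rab40c and Rab7l1), 12 of 30 were lower and 3 higher. Recycling genes had a median log2 ratio of 0.52, secretory genes -0.95 and endocytic genes -1.95, from 7, 13 and 7 genes. With median-of-ratios factors the order was the same, at 1.34, -0.19 and -1.14, and it was not tested.

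Among endocytic Rab genes, 4 of 7 were lower at MII in wild type and none was higher. Rab5c, an early endosome Rab, was at 113 FPKM in WT GV and 28.7 in WT MII, 3.95-fold lower. Its locus is chr11:100576580-100599444 in build mm9, the build of all gene positions given below. Rab21, which acts on early endosomes and integrin traffic (chr10:114726918-114752647), was at 44.7 FPKM and 9.39, 4.76-fold lower, with bounds of 38.1 to 46.5 and 7.44 to 11.1. Rab22a, also of early endosomes (chr2:173485346-173527683), went from 59.2 to 12.9 FPKM, a log2 ratio of -2.12. These genes were all well expressed at GV, and the bounds of Rab21 and of Rab22a were apart between stages. Rab5b was lower as well, from 11 to 1.23 FPKM, while its paralogue Rab5a was at 2.53 and 4.06. Rab7, at a log2 ratio of -0.44, and Rab9, which returns receptors from late endosomes to the Golgi, at 0.28, stayed within 2-fold. With median-of-ratios factors the sign of Rab7 turned to 0.38.

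Of the secretory genes, 6 of 13 were lower and Rab8b alone was higher. The farthest apart was Rab1b, which controls transport from the endoplasmic reticulum to the Golgi (chr19:5099207-5106996). It was the Rab gene with the second highest FPKM in WT GV, at 116 FPKM, and was at 0.689 in WT MII (bounds 0.336 to 1.01), 169-fold lower. Its paralogue Rab1, now called Rab1a, went from 27.7 to 2.91 FPKM. The other ER and Golgi genes were within 2-fold as deposited: Rab2a was at 47.6 and 43.3 FPKM, Rab6a at 40.7 and 44.3, and Rab33b at 18.9 and 24.0. For Rab2a and Rab6a the bounds overlapped between stages, and for Rab33b they were apart. With median-of-ratios factors Rab33b was higher at MII, at a log2 ratio of 1.12, and Rab2a turned from -0.13 to 0.67.

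Among genes of exocytosis and post-Golgi carriers, Rab3d, an isoform of secretory granules, was at 88.3 FPKM at GV and 104 at MII in wild type. Rab27a, which tethers secretory vesicles at the cell cortex, was at 16.2 and 3.53 FPKM, a log2 ratio of -1.92. Rab10, of carriers from the Golgi and endosomes to the surface (chr12:3247428-3309969), was at 51.9 and 23.3 FPKM, and its log2 ratio of -1.12 was just past the 2-fold limit, and at -0.32 with median-of-ratios factors. Rab8a, which also serves such carriers, was just inside it at -0.95, with 17.5 and 8.53 FPKM. Rab8b (chr9:66691471-66767512) moved the other way, from 1.35 FPKM (bounds 1.03 to 1.66) to 24.4 (22.4 to 26.03), 18.1-fold higher. Rab3a was at 2.85 and 4.64 FPKM, with overlapping bounds. Rab13, known from the delivery of junction proteins, was at 14.6 FPKM in WT GV and listed at 0 in the other 3 libraries, so no fold is given. Rab3b was lower too, with a log2 ratio of -2.50.

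Recycling genes divided into a higher and a lower set. Rab14, which acts between the Golgi and endosomes (chr2:35035725-35056640), was at 71.5 FPKM at GV and 178 at MII in wild type, 2.49-fold higher. Rab11a (chr9:64563107-64585563) was at 83.4 and 120.1 FPKM, Rab35, of recycling and cytokinesis, at 20.4 and 33.1, and Rab12, of recycling endosomes and lysosomes, at 14.8 and 26.3. These 3 had log2 ratios of 0.52, 0.67 and 0.79, under the 2-fold limit as deposited and past it, at 1.34, 1.47 and 1.58, with median-of-ratios factors. Against them, Rab4a, of the fast recycling route (chr8:126329896-126359191), was at 29.3 and 2.70 FPKM, 10.8-fold lower, with bounds of 23.6 to 29.9 and 1.75 to 3.62. Rab4b went from 16.8 to 2.30 FPKM. Rab11b went from 14.8 to 1.29, 11.5-fold lower, while its paralogue Rab11a had the higher level at MII.

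Among the remaining genes, Rab23, known from ciliary Hedgehog signalling, was higher at MII in wild type, at 8.99 and 20.2 FPKM and a log2 ratio of 1.08, just past the limit. Rab38 and Rab32, which serve lysosome-related organelles, were at 46.3 and 26.04 FPKM and at 10.6 and 7.26 FPKM. Rab18, found on lipid droplets and the endoplasmic reticulum, was at 35.4 and 46.1 FPKM. Rab40c and Rab7l1, at 2.33 and 7.06 FPKM in WT GV, were listed at 0 in WT MII.

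**Figure D3:**
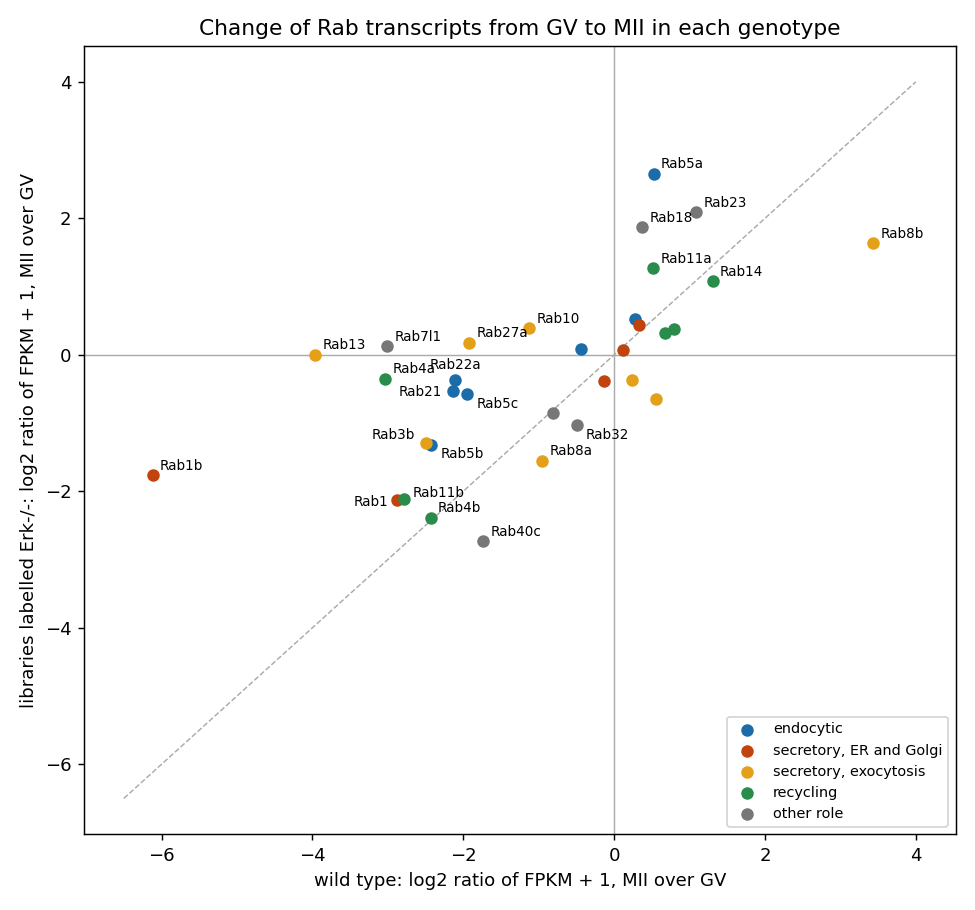
Log2 ratio of FPKM + 1, MII over GV, in wild type (x axis) and between the libraries labelled Erk-/- (y axis) for the 33 Rab genes that passed the filter, coloured by role, with a dashed line where both ratios are equal and names on the 23 genes past 2-fold on an axis. Rab8b, Rab14 and Rab23 lie above 1 on both axes, and Rab1b lies at -6.12 on the x axis and -1.77 on the y axis.

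Between Rab8a and Rab8b the leading gene changed with stage in wild type and in the labelled Erk-/- pair. Between Rab1 and Rab1b it changed in wild type alone, where both were low at MII (2.91 and 0.689 FPKM). Rab4b was above Rab4a in Erk-/- GV alone, but there their bounds overlapped, at 13.2 to 20.2 and 12.0 to 17.7 FPKM. The bounds of Rab4a and Rab4b overlapped in WT MII too, so whether they changed places is not settled in either pair. Of the summed FPKM of Rab1 and Rab1b, Rab1b held 80.8% in WT GV, 80.5% in Erk-/- GV, 19.2% in WT MII and 85.9% in the labelled Erk-/- MII library. Of the Rab8 pair, Rab8b held 7.16% and 10.7% at GV and 74.1% and 54.8% at MII, in wild type and the labelled Erk-/- pair in turn. Rab4a held 63.6% of its pair in WT GV, 46.7% in Erk-/- GV, 54.0% in WT MII and 82.3% in the labelled Erk-/- MII library. Rab11a held 84.9% of its pair in WT GV and 98.9% in WT MII, against 78.2% and 98.0% in the labelled Erk-/- pair. Rab5c led the Rab5 genes in all 4 libraries with 84.4% to 91.9%, while Rab5a held 1.99% in WT GV and 0.60% in Erk-/- GV, and 12.0% and 12.1% at MII. Rab3d led the Rab3 genes throughout, with 79.8% to 95.1%. The rule used for reads that fit both members of a close pair, such as Rab1 and Rab1b, is not given in the sources used here, so the split within such pairs is uncertain.

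**Figure D4:**
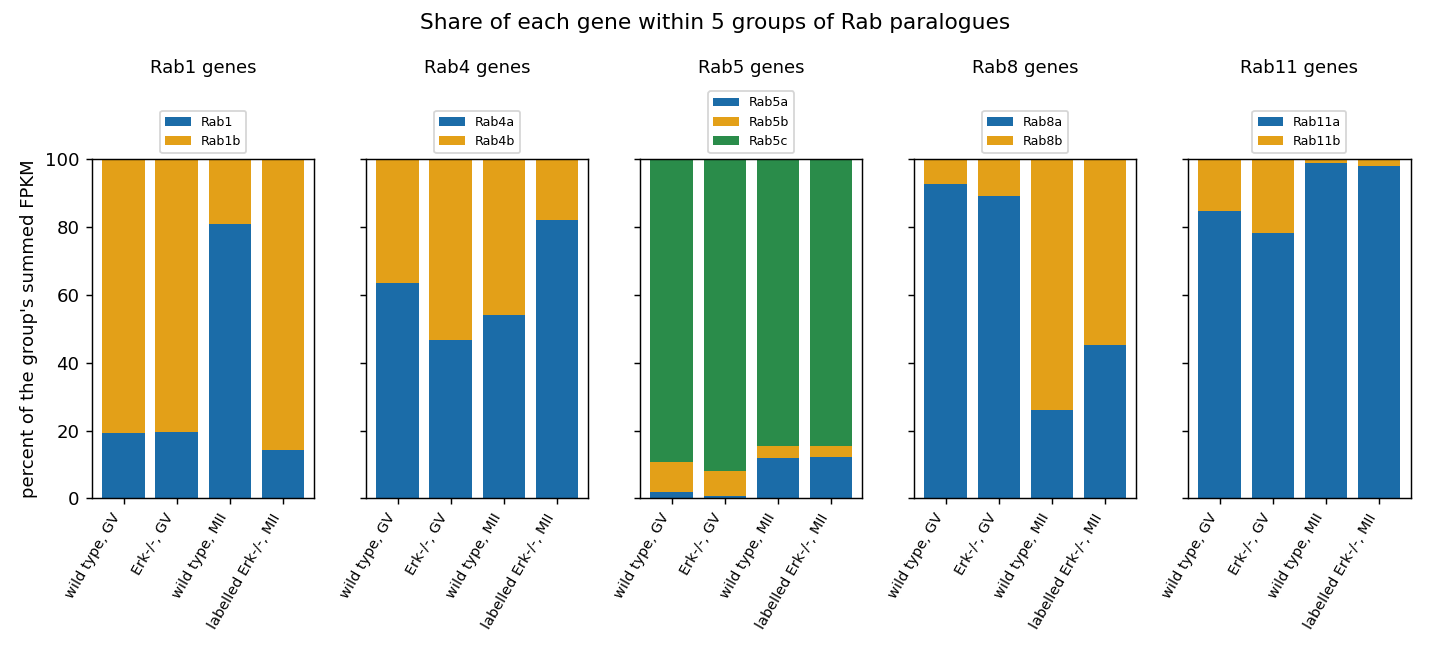
Percent of the summed FPKM of 5 groups of Rab paralogues held by each gene, as stacked bars with 1 bar per library. The Rab8 bars go from 92.8% Rab8a in WT GV to 74.1% Rab8b in WT MII, and Rab1b holds the smaller share of the Rab1 group, 19.2%, in WT MII alone of the 4 libraries.

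Maturing oocytes lengthen the poly(A) tails of stored mRNAs that carry a cytoplasmic polyadenylation element (CPE), a U-rich motif near the end of the 3' untranslated region that is bound by CPEB1, whose activity is tied to kinases of maturation. The last 150 bases of the longest annotated 3' untranslated region of each gene (GENCODE M21, build GRCm38) were searched for TTTTAT or TTTTAAT. These 2 motifs do not contain each other, and the search was in the sense of the mRNA only. A window was found for all 33 Rab genes and for 8992 of the 9990 genes. Of the Rab genes, 9 held a match (27.3%), near the 26.2% of all genes. Of the 13 Rab genes with a wild-type maturation ratio above 0, 7 held one (53.8%), and of the 20 below 0, 2 did (10%). The same shares over all genes were 39.2% of 3105 and 19.6% of 5658, so the difference has the direction seen in the transcriptome. By the 2-fold limit, 1 of the 3 higher Rab genes held a match, Rab8b, while Rab14 and Rab23 did not. Of the Rab genes within 2-fold 7 of 15 did, and of those lower 1 of 15. Over all genes the shares were 42.9% of those higher, 29.4% of those within 2-fold and 17.2% of those lower. With median-of-ratios factors, 8 of 16 Rab genes above 0 and 1 of 17 below held a match, Rab2a having changed sides. Windows of Rab genes above 0 were also richer in A and T, at a median of 68% against 56.7% below 0, and the part of base composition in the difference was not tested. A poly(A) signal, AATAAA or ATTAAA, lay near the annotated end in 12 of the 13 Rab genes above 0 and 10 of the 20 below. Over all genes it did in 2585 of 3105 and 4199 of 5658. Windows without a signal may not end where the transcript does, which was not tested. Of the genes with a CPE match, Rab2a, Rab18 and Rab22a lacked a signal. The site of a Pumilio protein, TGTANATA, occurred in 2 Rab windows (6.06%) and in 6.94% of all.

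Matches are shown with their surroundings to set genes with a higher level at MII beside others. They are written 5′ to 3′ in the sense of the mRNA as DNA letters, with the CPE in capitals. Coordinates in this paragraph alone are of GRCm38. A match is a run of letters and not a shown site of binding. The first is Rab8b, whose wild-type level was 18.1-fold higher at MII, from the minus strand of chr9:66843718-66843747.
Rab8b: tttaaaaatgaaTTTTATtccaggtgaact
Rab11a, from the minus strand of chr9:64715342-64715371, holds the 7-base form and had a log2 ratio of 0.52 in wild type and 1.27 in the labelled Erk-/- pair.
Rab11a: atttggacttttTTTTAATctattgatttg
Rab5a, from the plus strand of chr17:53507622-53507651, had log2 ratios of 0.52 and 2.65.
Rab5a: accggtgtttagTTTTATattgaggtgctc
Rab12, from the minus strand of chr17:66494642-66494671, had log2 ratios of 0.79 and 0.38.
Rab12: ctttggtatatcTTTTATtaagctgcactg
Rab22a, from the plus strand of chr2:173707221-173707250, held a match although its level in wild type was lower at MII, at a log2 ratio of -2.12, against -0.37 in the labelled Erk-/- pair.
Rab22a: tcaattgtatgcTTTTATagagtgtggcat
Rab6a, Rab9, Rab18 and Rab2a were the other 4 genes with a match, 3 of them above 0 in wild-type maturation and Rab2a, at -0.13, just below it.

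Between the 2 libraries titled Erk-/-, 9 of the 33 Rab genes were at least 2-fold lower at MII and 6 were higher. Over all genes 35.6% were lower and 22.9% higher, and the medians were -0.35 for Rab genes and -0.26 for all. Rab8b, Rab14 and Rab23 were higher at MII in both pairs of libraries, which share none. A further 7 were lower in both, and 8 were lower in wild type and within 2-fold in the labelled Erk-/- pair. The 8 include Rab13, listed at 0 in both libraries titled Erk-/-, and Rab7l1, at 0 and 0.089 FPKM in them. For these genes a ratio within 2-fold reflects values at or near 0. Of the Rab genes within 2-fold in wild type, Rab5a, Rab11a and Rab18 were higher and Rab8a and Rab32 lower in the labelled Erk-/- pair. With median-of-ratios factors Rab11a and Rab18 were higher in wild type too, at 1.34 and 1.18. Rab32 was then within 2-fold in the labelled Erk-/- pair, at -0.83. As deposited, no Rab gene passed opposite limits in the 2 pairs. The same overlaps were not counted over all genes, so no background stands beside these counts.

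Genes lower in both included Rab1, at 22.6 FPKM in Erk-/- GV and 4.39 in the labelled Erk-/- MII library, Rab11b at 15.1 and 2.71, Rab4b at 17.9 and 2.62, and Rab5b at 7.95 and 2.58. Rab4b had nearly the same log2 ratio in both, -2.43 in wild type and -2.39 in the labelled Erk-/- pair. Rab1b was lower in both but by different amounts: at 93.3 and 26.7 FPKM it was 3.50-fold lower in that pair. Rab14 was at 76.3 and 162 FPKM, 2.13-fold higher at MII. Rab8b was at 8.40 and 28.2 FPKM, 3.35-fold higher, starting from a higher GV level than in wild type. Rab18 was at 17.3 and 66.0 FPKM, and its log2 ratio of 1.87 compares with 0.37 in wild type. With median-of-ratios factors these ratios were 2.05 and 1.18, and their difference, 0.88, was within 2-fold. Rab11a, at 54.1 and 132 FPKM, had a log2 ratio of 1.27.

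At the GV stage, 5 of the 33 Rab genes were at least 2-fold higher in Erk-/- than in wild type and 7 were lower. Of all genes, 18.4% were higher and 22.9% lower, so both Rab shares were near the background. With median-of-ratios factors 6 were higher and 4 lower, Rab22a and Rab33b then being at -0.96 and -0.90, and with FPKM rescaled to a common sum 6 were higher and 5 lower. Of the 5 higher genes, 3 act in exocytosis or post-Golgi traffic. That role did not move as a whole: of its 8 genes, 3 were higher and 2, Rab13 and Rab27a, lower, with a median log2 ratio of -0.22. Rab3a (chr8:73278578-73282585) was at 2.85 FPKM in WT GV (bounds 1.93 to 3.78) and 25.02 in Erk-/- GV (20.3 to 27.1), 8.77-fold higher. Rab8a (chr8:74685099-74705265) was at 17.5 and 69.9 FPKM, 4.003-fold higher, and Rab8b at 1.35 and 8.40. The bounds of these 3 genes were apart between genotypes.

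Rab38 was the fourth of these, at 46.3 and 107 FPKM, and Rab35 the fifth, at 20.4 and 44.6. In the other direction, Rab22a was at 59.2 FPKM in WT GV and 28.0 in Erk-/- GV, Rab27a at 16.2 and 6.71, and Rab23 at 8.99 and 2.22. Rab33b, a Golgi Rab also linked to autophagy, was at 18.9 and 8.94 FPKM, and its log2 ratio of -1.002 lies at the limit. Rab18, at -0.99, lies just short of it. The rest of the 7 were Rab5a, Rab7l1 and Rab13, the last 2 listed at 0 in Erk-/- GV. Rab7, Rab5c and Rab21 differed by log2 ratios of 0.28, -0.22 and 0.05. Of the 4 endocytic genes with the highest FPKM in WT GV, these 3 stayed within 2-fold at GV and Rab22a passed the limit.

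At MII, 8 of the 33 Rab genes were at least 2-fold higher in the library labelled Erk-/- than in wild type and none was lower, while 31.4% of all genes were higher and 7.43% lower. The median was 0.46 for Rab genes and 0.31 for all genes. The split again rested on scaling: with median-of-ratios factors, which lower the all-gene median by 0.31, 4 Rab genes were higher and 4 were lower (Rab9, Rab12, Rab23 and Rab33b). This comparison and wild-type maturation share the WT MII library, so low values there enter both.

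Rab1b was at 0.689 FPKM in WT MII and 26.7 in the labelled Erk-/- MII library, 38.7-fold higher, with bounds of 0.336 to 1.01 and 22.4 to 28.5. Rab4a was at 2.70 and 12.1 FPKM, 4.49-fold higher, and Rab21 at 9.39 and 31.7, 3.38-fold higher. Rab3a was at 4.64 and 15.6 FPKM, 3.37-fold higher. For these 4 genes the call held under median-of-ratios factors. Rab5c, at 28.7 and 65.1 FPKM, Rab8a, at 8.53 and 23.2, and Rab38, at 26.04 and 58.7, passed the limit as deposited and had log2 ratios of 0.63, 0.86 and 0.62 with those factors. The remaining gene, Rab5a, was at 4.06 and 9.30 FPKM. Rab3a, Rab8a and Rab38 were higher in the library titled Erk-/- at GV as well, at which stage Mapk3 differed between the libraries.

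The genes without such a difference at MII were spread over all roles. Rab14 was at 178 FPKM in wild type and 162 in the library labelled Erk-/-, Rab3d at 104 and 88.6, Rab6a at 44.3 and 47.8, Rab2a at 43.3 and 53.5, and Rab8b at 24.4 and 28.2. Rab22a was at 12.9 and 21.4 FPKM, a log2 ratio of 0.69, and Rab27a at 3.53 and 7.70, a log2 ratio of 0.94. Rab9, Rab12, Rab23 and Rab33b were lower in the library labelled Erk-/-, with log2 ratios of -0.61, -0.66, -0.63 and -0.89.

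**Figure D5:**
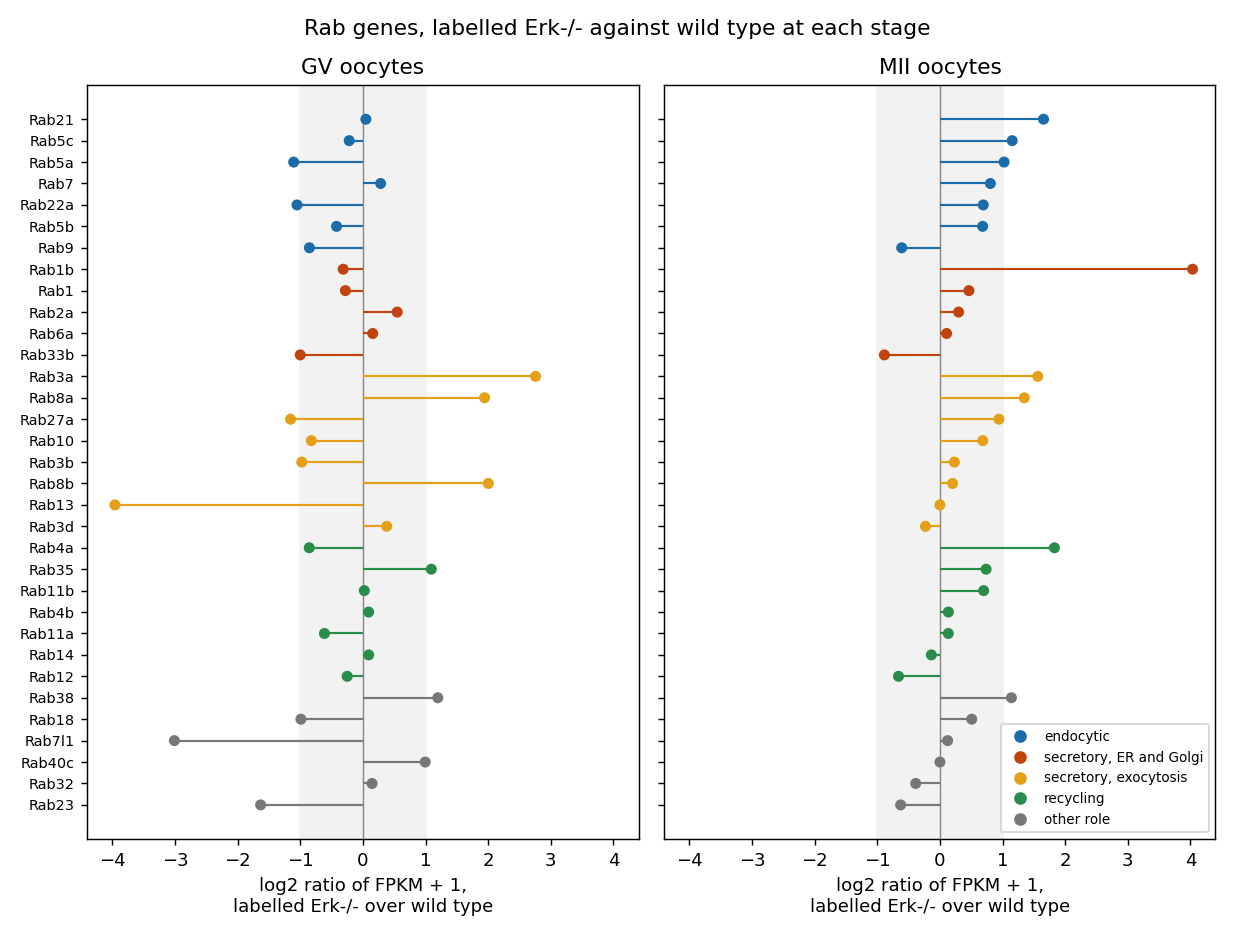
Log2 ratio of FPKM + 1, labelled Erk-/- over wild type, for each of the 33 Rab genes that passed the filter, at GV in the left panel and at MII in the right panel, coloured by role, with ratios within 2-fold shaded grey. At GV, Rab3a has the highest ratio, 2.76, and at MII Rab1b does, 4.03, and ratios that involve a value listed at 0 (Rab13, Rab7l1, Rab40c) rest on the added 1.

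The maturation ratio was higher in the labelled Erk-/- pair than in wild type by at least 2-fold for 14 of the 33 Rab genes and lower for 2, beside 41.2% and 18.8% of all genes. The median difference of log2 ratios was 0.68 for Rab genes and 0.59 for all. With median-of-ratios factors 8 were higher and 7 lower, so the split between directions depended on scaling. The 14 include Rab13 and Rab7l1, which were listed at 0 in Erk-/- GV and in WT MII, and without genes listed at 0 the counts were 12 and 2 of 30. Of the 7 endocytic genes 5 were higher, of the 13 secretory genes 5 were higher and 2 lower, and of the 7 recycling genes only Rab4a was higher. The difference was 4.35 for Rab1b, 2.69 for Rab4a, 2.13 for Rab5a and 2.10 for Rab27a. It was 1.74 for Rab22a, 1.61 for Rab21 and 1.37 for Rab5c, of which Rab22a and Rab21 kept a 2-fold difference with median-of-ratios factors and Rab5c did not, at 0.76. Rab10 was at 51.9 and 23.3 FPKM in wild type and at 28.9 and 38.0 in the labelled Erk-/- pair, a difference of 1.51, or 0.90 with those factors. The 2 genes with a lower maturation ratio in the labelled Erk-/- pair were Rab8b, at -1.80, and Rab3a, at -1.19, both of which started from a higher GV level there. Rab6a and Rab38 differed by -0.05 each.

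Of 152 regulators and effectors of Rab proteins in the files, 120 passed the filter. In wild-type maturation 63 were lower and 19 higher, with a median log2 ratio of -1.15, again near the shares of all genes. Of the 7 genes for prenylation and GDIs, 6 were lower and none was higher in wild type, beside 49.6% and 20.6% of all genes. Their median log2 ratio of -1.17 lay near the limit, and the regulator lists were not recomputed with median-of-ratios factors. In the labelled Erk-/- pair 3 of the 7 were lower and 3 higher, beside 35.6% and 22.9% of all genes. Gdi2, the GDI gene with the higher FPKM, was at 85.5 FPKM in WT GV, 110 in Erk-/- GV, 21.7 in WT MII and 28.4 in the labelled Erk-/- MII library, lower at MII in both pairs. Mon1a, part of the exchange factor of Rab7, was at 79.3 FPKM in WT GV and 14.9 in Erk-/- GV, listed at 0 in WT MII, and at 0.938 in the labelled Erk-/- MII library. Trappc6b, of the TRAPP complex that activates Rab1, was at 58.1 FPKM in WT GV, 0.0814 in WT MII and 25.6 in the labelled Erk-/- MII library. Rab1b was also low in WT MII alone, as was Tbc1d10b, given below. Lower values in WT MII were common: 31.4% of all genes were at least 2-fold higher in the labelled Erk-/- MII library. Not every TRAPP gene was lower: Trappc6a was listed at 0 in WT GV and was at 21.2 FPKM in WT MII. A link between these genes was not tested. Tbc1d7, which has the domain of Rab GAPs and belongs to the TSC complex, was at 33.7 FPKM in WT GV and listed at 0 in WT MII. Tbc1d10b, which encodes a GAP, was at 62.1 FPKM in WT GV, 0.641 in WT MII and 26.7 in the labelled Erk-/- MII library.

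In the labelled Erk-/- pair 39 regulators were lower at MII and 26 higher, 32.5% and 21.7% of the 120, near the 35.6% and 22.9% of all genes. Rab3gap1, the catalytic subunit of the GAP of Rab3 proteins, was at 89.6 FPKM in Erk-/- GV and 5.42 in the labelled Erk-/- MII library, and in wild type it was at 84.3 and 5.34, so its values were alike in both pairs. Rabggta, a subunit of Rab geranylgeranyl transferase, was at 12.5 FPKM in Erk-/- GV and listed at 0 in the labelled Erk-/- MII library. Trappc2 was at 7.31 and 107 FPKM in these libraries, and Tbc1d23 at 1.21 and 19.7. At GV, 23 regulators were higher and 34 lower in Erk-/-, 19.2% and 28.3%, beside 18.4% and 22.9% of all genes. Dennd3 was listed at 0 in wild type and was at 12.7 FPKM in Erk-/-, Rims2, of Rab3-dependent exocytosis, was at 0.509 and 11.8, Rabepk at 1.99 and 21.9, and Trappc2 at 54.7 and 7.31. At MII, 36 were higher and 5 lower in the library labelled Erk-/-, 30% and 4.17%, beside 31.4% and 7.43% of all genes. Besides Trappc6b and Tbc1d10b these included Plekhm1, a Rab7 effector at lysosomes, listed at 0 in wild type and at 12.6 FPKM, and Tbc1d25, listed at 0 and at 11.2. The maturation ratio was higher in the labelled Erk-/- pair for 56 regulators and lower for 18, 46.7% and 15%, beside 41.2% and 18.8% of all genes. The difference was 4.72 for Tbc1d10b, 4.599 for Sbf1, 4.50 for Trappc6b and -3.74 for Trappc6a.

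Other small GTPases gave a scale for the family. In wild-type maturation the median log2 ratio was -0.39 for 22 genes of the Arf family, which act on vesicle coats, and 0.36 for 13 Ras and Rap genes, against -0.81 for Rab genes. By the same limit 7 Arf family genes were lower and 3 higher, and 4 Ras and Rap genes were lower and 5 higher. The differences between the families were not tested.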

How the data were processed

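Per the labels' protocols, purified mRNA was sequenced as read pairs on an Illumina HiSeq. The authors deposited FPKM per gene with a lower and an upper bound, per the file headers. CASAVA 1.8, TopHat and build mm9 are named in the submitters' processing notes. Not given in the sources used here are the program behind FPKM, its annotation, the level of the bounds, the use of strand and the way mRNA was selected. FPKM holds no counts, so depth is unknown. The width of the bounds over 1582 genes gave depths of 0.808, 1.03 and 1.00 for Erk-/- GV, WT MII and labelled Erk-/- MII, relative to WT GV. The bounds cover error within a library, not between oocyte pools.

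FPKM was summed per symbol (23813 rows, 260 symbols on several rows, no Rab gene among them). Ratios are log2((FPKM + 1)/(FPKM + 1)), which understate changes of low genes, computed for 9990 genes (mean FPKM over the libraries at least 1), of which 3023 were listed at 0 somewhere. A 0 can be a failed estimate, and no fold is given against it. Folds of single genes are plain FPKM ratios. Locus starts count from 0 in the files (9169 of 21276 genes matched RefSeq lengths that way and 558 the other way), and 1 was added. The arithmetic was tested on simulated data. Python 3.11.15, pandas 2.3.3 and numpy 2.4.6 were used.

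Named genes were Rab genes with at least 10 FPKM in a library, the members of counts of 5 or fewer, and up to 4 regulators per comparison, by size of ratio among those with 10 FPKM in a library compared. Gdi2 was chosen after its values were seen, and further values of named regulators were added. The members, role lists and marker lists were chosen from general knowledge with earlier results of these data known. Alternatives were a pseudocount of 0.1, other filters on low values, median-of-ratios scaling, rescaling to 1000000 per library, leaving out genes listed at 0 and another treatment of repeated symbols. The search for motifs and its windows of 100 and 250 bases were chosen after seeing the data. Sequences came from GENCODE M21. One further list of small GTPases is not reported here.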

Additional observations from a re-analysis of the deposited data

Results flagged for a closer look

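Rab10 was lower at MII than at GV in wild type and higher in the labelled Erk-/- pair, whose MII library is not set apart from wild type by its Mapk3 level (34.3 against 25.7 FPKM). It was at 51.9 FPKM in WT GV and 23.3 in WT MII, and at 28.9 in Erk-/- GV and 38.0 in the labelled Erk-/- MII library. The difference of the maturation log2 ratios was 1.51. With median-of-ratios factors it was 0.90, from ratios of -0.32 in wild type and 0.58 in the labelled Erk-/- pair, so the signs stayed opposite and all 3 values were within 2-fold. The authors' bounds were apart between the stages in both pairs. With 1 library per group the difference was not tested.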

How the results depend on the processing

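With 1 library per group there is no replicate to leave out and no estimate of spread. No paired analysis was possible because each group has 1 library. Of 210 recomputed summary values, 187 stayed within 1.5 times the value as deposited, and 23 moved. With median-of-ratios factors, 12 Rab genes were higher in wild-type maturation, 4 were lower by genotype at GV, 4 were higher and 4 lower at MII, and 8 were higher and 7 lower in the difference of maturation ratios. The Rab median of wild-type maturation became -0.0031, with -1.14 for endocytic, -0.19 for secretory and 1.34 for recycling genes. The difference became 0.76 for endocytic genes and turned to -0.50 for secretory genes and -0.43 for recycling genes, while the recycling median at MII turned to -0.25. Single genes that changed sign with this scaling in wild-type maturation were Rab2a (0.67), Rab7 (0.38) and Rab32 (0.25). At MII they were Rab11a (-0.40), Rab18 (-0.02), Rab2a (-0.23), Rab4b (-0.25), Rab6a (-0.42) and Rab8b (-0.31), and in the difference Rab33b (-0.50), Rab4b (-0.43), Rab7 (-0.10) and Rab9 (-0.37). The higher share of called genes went from 16.7% to 46.2% of Rab genes and from 29.3% to 42.3% of all genes in wild-type maturation, and from 100% to 50% and from 80.9% to 59.1% at MII. In the difference it went from 87.5% to 53.3% of Rab genes and from 68.7% to 55.2% of all. With a mean of at least 10 FPKM, 7 Rab genes were lower in wild-type maturation, 3 in maturation of the labelled Erk-/- pair and 3 by genotype at GV, and 8 were higher in the difference, with wild-type maturation medians of 0.12 for Rab genes and -0.0071 for secretory genes. With no filter, 12 were higher in maturation of the labelled Erk-/- pair, the wild-type maturation medians of Rab, endocytic and secretory genes were 0, and the median difference was 0.022. A CPE match was found above and below 0 in 6 and 0 Rab genes with windows of 100 bases, and in 7 and 4 with 250. The cause of these shifts was not tested.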
